A study of Mus musculus with 12 samples.

Results

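The 36 genes described here are interferon-stimulated effectors: genes that cells switch on in response to interferon and whose products bind viral RNA, modify proteins with ISG15 or block viral replication. They were taken as a fixed list of names, chosen with earlier results of these data known. In the deposited count table, 35 were found by symbol and 1, Helz2, by its Ensembl ID under the older name BC006779. They make up 36 of 18068 genes in the table and held between 0.159% and 0.238% of the counts of a library. All 36 passed the filter on low counts that left 13750 genes for testing. The libraries came from ileal enteroids of wild-type C57Bl/6 mice, which are cultures of intestinal epithelium grown from the lower small intestine, and were sequenced as directional poly(A) RNA. The 4 groups of 3 libraries were enteroids given 1 mM butyrate for 48 h together with 20 ng/mL IL-13 for 72 h, enteroids given 1 mM butyrate alone for 48 h, enteroids given 20 ng/mL IL-13 alone for 72 h, and untreated enteroids. The labels name no vehicle, age, sex or number of mice and do not say whether replicates were separate cultures, so the spread behind each p-value is that between libraries and may be technical.

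Type I and type III interferons bind receptors that activate JAK kinases, and the kinases phosphorylate STAT proteins, among them STAT2. With IRF9 these form the complex ISGF3, which binds a promoter element called the interferon-stimulated response element (ISRE) and turns on the genes described here. Many of them are also expressed at a low level without added interferon. Intestinal epithelium uses the same genes against enteric viruses and answers strongly to type III interferon. Butyrate, a short-chain fatty acid made by gut bacteria from fibre, inhibits histone deacetylases, and IL-13, a cytokine of type 2 immunity, signals mainly through STAT6.

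The lowest and highest library totals were 13867982 and 15618074 counts for both agents together, 17006538 and 24294456 for butyrate, 14239405 and 15008598 for IL-13, and 16303915 and 22558599 for untreated enteroids. Levels are given as CPM, each count scaled to the size of its library after TMM normalisation. Epithelial markers were high in every library, with Epcam between 24542 and 44307 counts. Of 8 such markers, Krt20 was called higher with butyrate over untreated, and Epcam, Cdh1 and Krt18 with butyrate + IL-13 over IL-13. Of all tested genes, 5.14% and 9.85% were called higher in that order. Of 2 mesenchymal markers tested, Vim was called lower and Pdgfrb higher with butyrate + IL-13 over IL-13. The part of these markers in the results was not tested. Of 16 immune markers 9 had rows, and their summed level lay between 31.9 and 35.3 CPM for both agents, 27.6 and 29.8 CPM for butyrate, 29.4 and 35.5 CPM for IL-13, and 27.6 and 31.2 CPM for untreated libraries. Csf1r, at 225 to 462 counts, Itgam, at 85 to 212, and Cd68, at 45 to 96, made up most of that sum, while Ptprc had 1 to 10 counts, Coro1a and Laptm5 at most 5 counts and Cd3e at most 1 count in any library. Of these markers, Lyz2 was called higher with butyrate than in untreated enteroids and Cd68 higher with IL-13 than in untreated enteroids. Cd68 was also higher and Lyz2 lower with both agents than with butyrate, and Cd68 higher with both agents than in untreated enteroids, and their part in the results was not tested. Butyrate + IL-13 replicate 3 and butyrate replicate 2 stood apart in Lars2, at 6983 CPM and 5048 CPM, where the remaining 10 ranged between 423 and 1434 CPM. Butyrate + IL-13 replicate 3 was the highest of its group for 25 of the 36 genes and replicate 1 the lowest for 25, and untreated replicate 2 was the highest of its group for 32. In bulk RNA such as this, a change in the number of cells of a type cannot be told apart from a change in RNA per cell.

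Most of the 36 genes were higher with butyrate, both with and without IL-13. The mean log2 CPM over the 36 genes was 4.62, 4.84 and 5.07 in the butyrate + IL-13 libraries and 4.88, 4.79 and 4.89 in the butyrate libraries, against 3.93, 3.88 and 3.95 in the IL-13 libraries and 3.43, 4.11 and 3.64 in the untreated libraries. Every library given butyrate thus lay above every library without it. The spread was widest among untreated libraries, whose mean was 3.72 ± 0.35 (SD, n = 3), and the IL-13 libraries, at 3.92 ± 0.03 (SD, n = 3), lay within it.

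**Figure D1:**
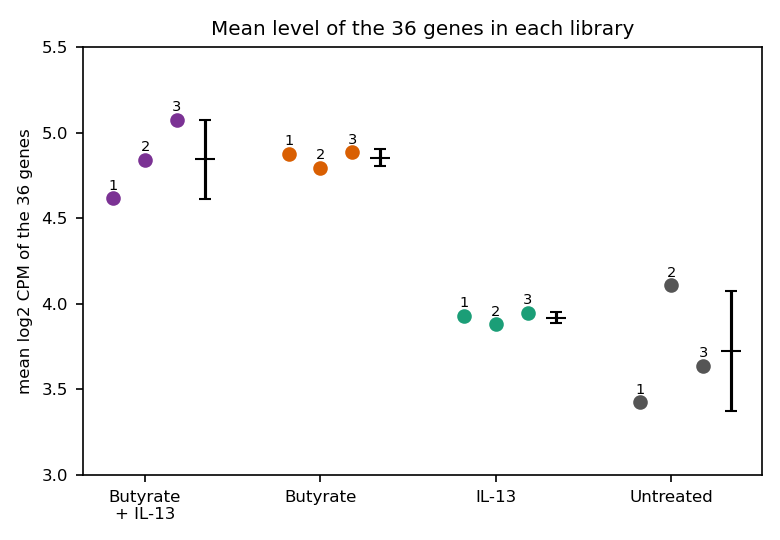
Mean log2 CPM of the 36 genes in each library, by group from left to right; points are replicates 1 to 3, and bars give the group mean ± SD (n = 3). The 6 libraries given butyrate sit between 4.62 and 5.07, the 6 without it between 3.43 and 4.11, and untreated replicate 2 is the highest of those without butyrate.

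With butyrate over untreated enteroids, edgeR called 26 of the 36 genes higher and 0 lower at an adjusted p under 0.05, where it called 5.14% of all tested genes higher and 2.76% lower. Their median log2 fold change was 0.85, against -0.01 over all tested genes. The range was -0.02 for Tor3a to 4.37 for Ifi27l2a, and 16 genes were called with at least a 2-fold rise. With butyrate + IL-13 over IL-13, edgeR called 24 higher and 0 lower, where 9.85% of all genes were called higher and 11.3% lower. The median was 0.69, the range -0.06 to 2.70, and 15 genes were called with at least a 2-fold rise. The 2 comparisons share no library. Of the genes, 21 were called in both, which is 80.8% of the first list and 87.5% of the second, and 7 were called in neither (Dtx3l, Epsti1, Ifi35, Lgals3bp, Mx2, Nmi and Tor3a). Adar, Bst2, Herc6, Parp12 and Samd9l were called for butyrate over untreated alone. Parp9, Trim25 and Uba7 were called for butyrate + IL-13 over IL-13 alone. A call in 1 comparison alone does not show a difference between them, which the interaction term tests. Across the 36 genes the log2 fold changes of the 2 comparisons had a Spearman rho of 0.91 and a Pearson r of 0.90. Genes are not independent replicates, and this is a description.

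Of the calls, 18 of 26 for butyrate over untreated and 19 of 24 for butyrate + IL-13 over IL-13 held under each of 20 alternative settings. Leaving out 1 library at a time gave 18 to 27 genes for butyrate over untreated, with 24 without untreated replicate 2, and 19 to 27 for butyrate + IL-13 over IL-13. Without both libraries highest in Lars2 the counts were 26 and 20. Some genes not called in the reported fit were called under at least 1 alternative. For butyrate over untreated these were Ifi35 (lowest adjusted p = 0.014) and Parp9 (0.047, DESeq2). For butyrate + IL-13 over IL-13 they were Bst2 (0.016), Samd9l (0.016), Lgals3bp (0.029), Ifi35 (0.042) and Parp12 (0.047).

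**Figure D2:**
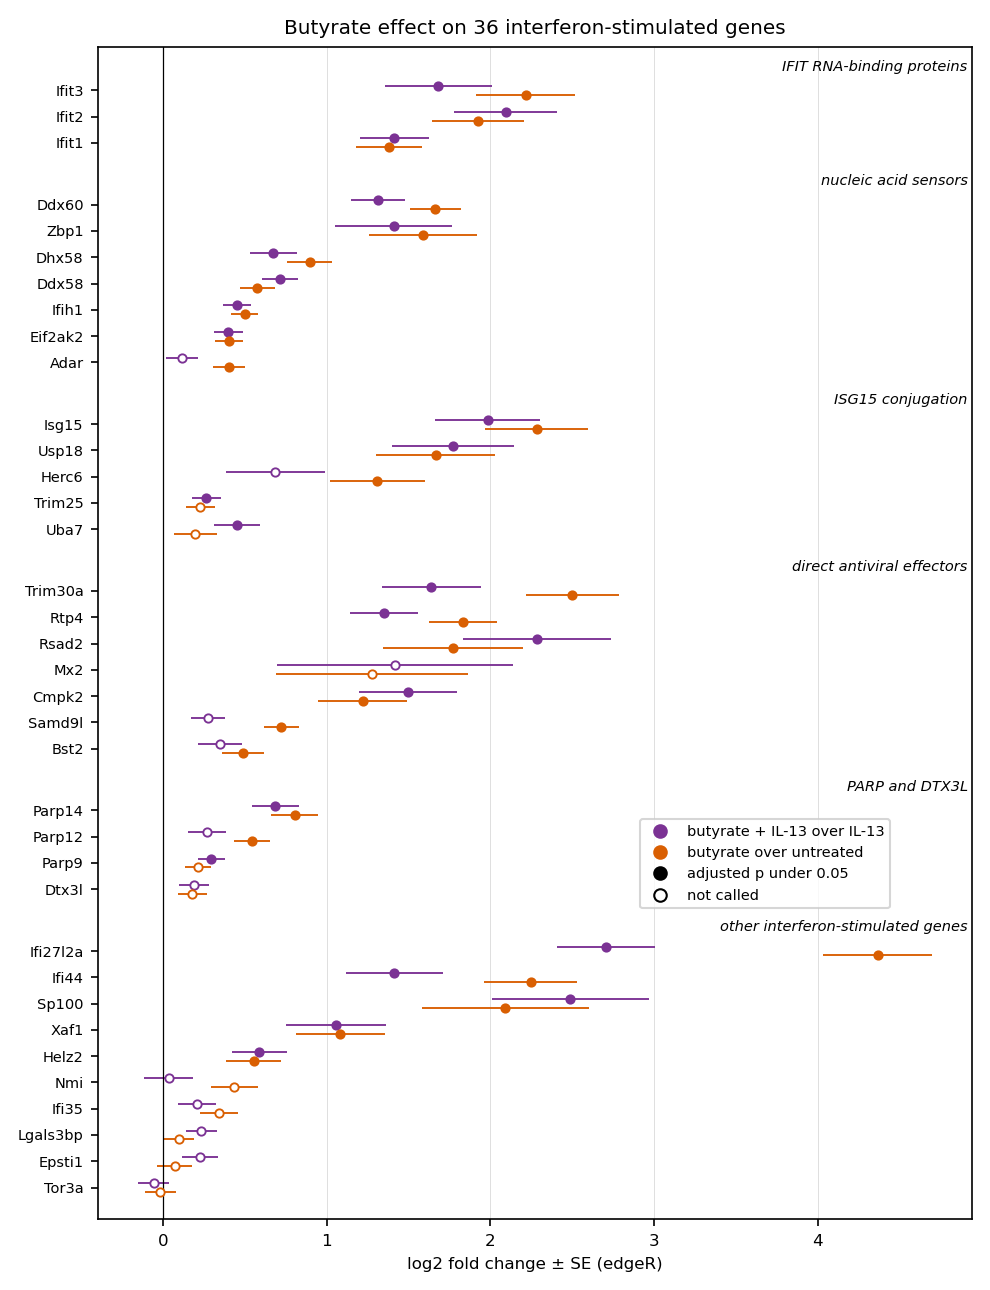
Log2 fold change ± SE (edgeR) of each of the 36 genes for butyrate + IL-13 over IL-13 and for butyrate over untreated, grouped by role; filled points have an adjusted p under 0.05. Ifi27l2a stands furthest right at 4.37 for butyrate over untreated, and no filled point lies below 0.

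Promoter sequences show the element through which ISGF3 is known to act on some of these genes. RefSeq promoters (GRCm38.p6) were at hand for 27 of the 36 genes, with no entry for Dhx58, Ifi27l2a, Mx2, Parp9, Parp14, Rtp4, Tor3a, Usp18 and Zbp1. The ISRE core GAAANNGAAA was searched on both strands in the 250 bases before each start, and occurrences that overlap each other were all counted. It was found in 7 of the 27 genes, or 25.9%, and in 936 of 27025 genes in the RefSeq table, or 3.46%. The 7 stretches are printed here because they carry that match; capitals mark the core, which is written as its reverse complement where it lies on the other strand, and each is written 5′ to 3′ along the gene's strand.
Isg15 (chr4:156200855-156200916, minus strand): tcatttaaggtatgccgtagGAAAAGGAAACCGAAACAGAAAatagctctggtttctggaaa
Ifit1 (chr19:34640765-34640833, plus strand): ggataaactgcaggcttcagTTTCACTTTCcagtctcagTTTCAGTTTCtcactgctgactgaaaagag
Ifit3 (chr19:34583353-34583436, plus strand): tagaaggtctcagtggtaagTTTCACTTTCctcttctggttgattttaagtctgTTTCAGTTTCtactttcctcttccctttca
Ddx60 (chr8:61928014-61928086, plus strand): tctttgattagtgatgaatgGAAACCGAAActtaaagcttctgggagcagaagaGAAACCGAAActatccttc
Bst2 (chr8:71537567-71537622, minus strand): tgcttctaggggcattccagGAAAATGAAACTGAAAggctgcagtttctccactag
Rsad2 (chr12:26456543-26456592, minus strand): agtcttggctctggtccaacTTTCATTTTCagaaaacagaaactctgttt
Trim30a (chr7:104465200-104465249, minus strand): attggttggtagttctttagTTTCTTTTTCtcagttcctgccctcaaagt

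Isg15 held 3 overlapping cores starting 78, 72 and 66 bases before its start, and Ifit1, Ifit3, Ddx60 and Bst2 held 2 each. The nearest core began 19 bases before the start of Ddx60 and 36 bases before that of Trim30a. All 7 genes were called higher with butyrate over untreated enteroids, with a median log2 fold change of 1.77, and 6 of 7, Bst2 being the other, with butyrate + IL-13 over IL-13, with a median of 1.64. Among the 20 genes whose window lacked the core, 13 were called higher with a median of 0.52 for butyrate over untreated, and 11 with a median of 0.42 for butyrate + IL-13 over IL-13. The 9 genes with no promoter entry had 6 called and a median of 1.28, and 7 called and a median of 1.35, for the same comparisons in that order. Of all tested genes, with or without the core, 5.14% and 9.85% were called higher. The difference between genes with and without the core was not tested. Calls were not counted among other genes with the core, nor with 50 bases after the start added, where 10 of the 27 genes held it. The gamma-activated sequence TTCNNNGAA was in 3 of the 27 genes (11.1%) and in 8.13% of all genes, and the STAT6 element TTCNNNNGAA in 1 of the 27 (3.7%) and in 6.76% of all genes. A match is a description of letters in this window, and genes without it can hold the element elsewhere.

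The 3 IFIT genes, whose products bind foreign or unmodified RNA and hold back its translation, lie near each other on chromosome 19 between 34550694 and 34650009 (mm10). EdgeR called all 3 higher in both butyrate comparisons. Ifit3 had 10.6, 13.1 and 17.4 CPM with butyrate + IL-13 and 23.5, 17.4 and 24.4 CPM with butyrate. Without butyrate, Ifit3 had 4.76, 4.19 and 3.88 CPM with IL-13 and 2.77, 8.27 and 2.77 CPM in untreated enteroids. Its butyrate libraries of both kinds lay above all others, and untreated replicate 2 was the highest of the libraries without butyrate. Ifit1 had 43.3, 47.5 and 76.1 CPM with butyrate + IL-13 and 57.0, 59.4 and 54.3 CPM with butyrate. Without butyrate, Ifit1 had 21.3, 23.9 and 17.5 CPM with IL-13 and 16.0, 29.7 and 19.7 CPM in untreated enteroids. Again the groups with and without butyrate did not overlap. The log2 fold change of Ifit3 was 1.68 ± 0.33 (adjusted p = 0.0014) over IL-13 and 2.21 ± 0.30 (adjusted p = 0.00012) over untreated enteroids. For Ifit1 the change was 1.41 ± 0.21 (adjusted p = 0.00014) over IL-13 and 1.38 ± 0.20 (adjusted p = 0.00028) over untreated, and for Ifit2 it was 2.09 ± 0.32 (adjusted p = 0.00015) and 1.92 ± 0.28 (adjusted p = 0.00026) in the same order. Leaving out untreated replicate 2 moved the change of Ifit3 over untreated to 2.97. Ifit3 has close copies in the mouse genome, and reads shared with them could have been split by the authors' counting.

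All 7 sensors and effectors of nucleic acid recognition were called higher with butyrate over untreated enteroids, and 6 of 7 with butyrate + IL-13 over IL-13. Ddx60, a helicase linked to RIG-I signalling, had the largest change of the 7 over untreated enteroids, with 27.0, 28.2 and 35.3 CPM with butyrate + IL-13 and 38.5, 44.2 and 35.0 CPM with butyrate. Without butyrate, Ddx60 had 10.96, 12.2 and 13.2 CPM with IL-13 and 9.63, 15.5 and 11.97 CPM in untreated enteroids. The libraries given butyrate lay above all the rest. Its log2 fold change was 1.31 ± 0.16 (adjusted p = 2.4e-05) over IL-13 and 1.66 ± 0.16 (adjusted p = 2.8e-06) over untreated. Zbp1, which senses left-handed nucleic acids and can start cell death, changed by 1.41 ± 0.36 (adjusted p = 0.0088) and 1.59 ± 0.33 (adjusted p = 0.0049) in the same order, on counts of 11 to 100 per library. The RIG-I-like receptors are the cytoplasmic sensors of viral double-stranded RNA, and all 3 were called in both comparisons. Ddx58, which encodes RIG-I, changed by 0.71 ± 0.11 (adjusted p = 0.00016) over IL-13 and 0.58 ± 0.11 (adjusted p = 0.0018) over untreated.

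Dhx58, which encodes the RIG-I-like receptor LGP2, had 24.3, 29.2 and 27.6 CPM with butyrate + IL-13 and 25.7, 19.9 and 27.9 CPM with butyrate. Without butyrate, Dhx58 had 18.5, 16.7 and 15.7 CPM with IL-13 and 11.5, 15.0 and 13.0 CPM in untreated enteroids. The 4 groups were stepped, with all IL-13 libraries above all untreated ones and all libraries given butyrate above both. Its log2 fold change was 0.67 ± 0.14 (adjusted p = 0.0026) over IL-13 and 0.90 ± 0.14 (adjusted p = 0.00045) over untreated. Ifih1, which encodes the long double-stranded RNA sensor MDA5, had 97.0, 100.3 and 112 CPM with butyrate + IL-13 and 88.8, 89.8 and 82.9 CPM with butyrate. Without butyrate, Ifih1 had 71.3, 75.5 and 79.3 CPM with IL-13 and 62.8, 65.1 and 57.1 CPM in untreated enteroids, in the same stepped order, and changed by 0.45 ± 0.09 (adjusted p = 0.0012) and 0.50 ± 0.09 (adjusted p = 0.001) for those comparisons.

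Eif2ak2, which encodes the kinase PKR that halts translation on double-stranded RNA, had 91.3, 83.5 and 104 CPM with butyrate + IL-13 and 85.2, 90.3 and 80.4 CPM with butyrate. Without butyrate, Eif2ak2 had 69.6, 71.6 and 70.5 CPM with IL-13 and 66.5, 64.4 and 62.6 CPM in untreated enteroids. The changes were small next to those of Ddx60 but the groups with and without butyrate did not overlap, and edgeR gave 0.40 ± 0.09 (adjusted p = 0.0037) over IL-13 and 0.40 ± 0.09 (adjusted p = 0.0068) over untreated. Adar, which encodes an enzyme that edits adenosine to inosine in double-stranded RNA, had 87.9, 95.3 and 98.1 CPM with butyrate + IL-13 and 94.1, 91.1 and 102 CPM with butyrate. Without butyrate, Adar had 85.7, 90.6 and 83.8 CPM with IL-13 and 62.5, 83.4 and 71.3 CPM in untreated enteroids. The untreated libraries were the lowest, and the libraries with both agents overlapped those with IL-13. Adar was called for butyrate over untreated at 0.40 ± 0.10 (adjusted p = 0.014) and not for butyrate + IL-13 over IL-13, at 0.11 ± 0.10 (adjusted p = 0.45). The first call was lost without untreated replicate 1 (adjusted p = 0.083) or 3 (0.067), over a range of 0.0019 to 0.083 among all alternatives.

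ISG15 is a ubiquitin-like protein that is joined to other proteins by the activating enzyme UBA7 and ligases such as HERC6 (in mouse) and TRIM25, and is taken off by USP18. The modifier and its protease rose most. Isg15 had 15.7, 23.1 and 28.5 CPM with butyrate + IL-13 and 20.9, 14.2 and 24.0 CPM with butyrate. Without butyrate, Isg15 had 4.97, 7.28 and 4.76 CPM with IL-13 and 1.68, 6.08 and 4.38 CPM in untreated enteroids. The groups with and without butyrate were well apart. Its log2 fold change was 1.98 ± 0.32 (adjusted p = 0.0003) over IL-13 and 2.28 ± 0.32 (adjusted p = 0.00015) over untreated. Usp18, which also dampens the interferon receptor, changed by 1.77 ± 0.37 (adjusted p = 0.0025) and 1.66 ± 0.37 (adjusted p = 0.0074) in the same order, and its change over untreated was 2.27 without untreated replicate 2.

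The conjugating enzymes had smaller log2 fold changes. Uba7 had 19.5, 21.7 and 21.4 CPM with butyrate + IL-13 and 26.3, 22.2 and 25.5 CPM with butyrate. Without butyrate, Uba7 had 14.5, 14.4 and 16.8 CPM with IL-13 and 17.1, 24.9 and 22.7 CPM in untreated enteroids. The IL-13 libraries were the lowest, and the untreated ones spread across both groups given butyrate. EdgeR gave 0.45 ± 0.14 (adjusted p = 0.028) for butyrate + IL-13 over IL-13 and 0.20 ± 0.13 (adjusted p = 0.43) for butyrate over untreated. Trim25 had 284, 284 and 349 CPM with butyrate + IL-13 and 255, 244 and 241 CPM with butyrate. Without butyrate, Trim25 had 242, 255 and 266 CPM with IL-13 and 205, 229 and 198 CPM in untreated enteroids, with the untreated libraries lowest and the libraries given both agents highest. Its log2 fold change was 0.26 ± 0.09 (adjusted p = 0.043) over IL-13 and 0.23 ± 0.09 (adjusted p = 0.14) over untreated. Herc6 was called for butyrate over untreated, at 1.31 ± 0.29 (adjusted p = 0.0077), and not for butyrate + IL-13 over IL-13, at 0.69 ± 0.30 (adjusted p = 0.12). The Herc6 call was lost without untreated replicate 3 (adjusted p = 0.053; 0.0011 to 0.053 among all alternatives). The Uba7 call was lost without either of replicates 1 and 2 of IL-13 or either of replicates 2 and 3 of butyrate + IL-13 (0.013 to 0.10), and the Trim25 call in 11 of 20 alternatives (0.013 to 0.26). With library size alone (adjusted p = 0.10) and without both libraries highest in Lars2 (0.057) the Uba7 call was lost too. Uba7 overlaps Cdhr4 and Gm20661 on its own strand, and reads in the shared part cannot be assigned.

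**Figure D3:**
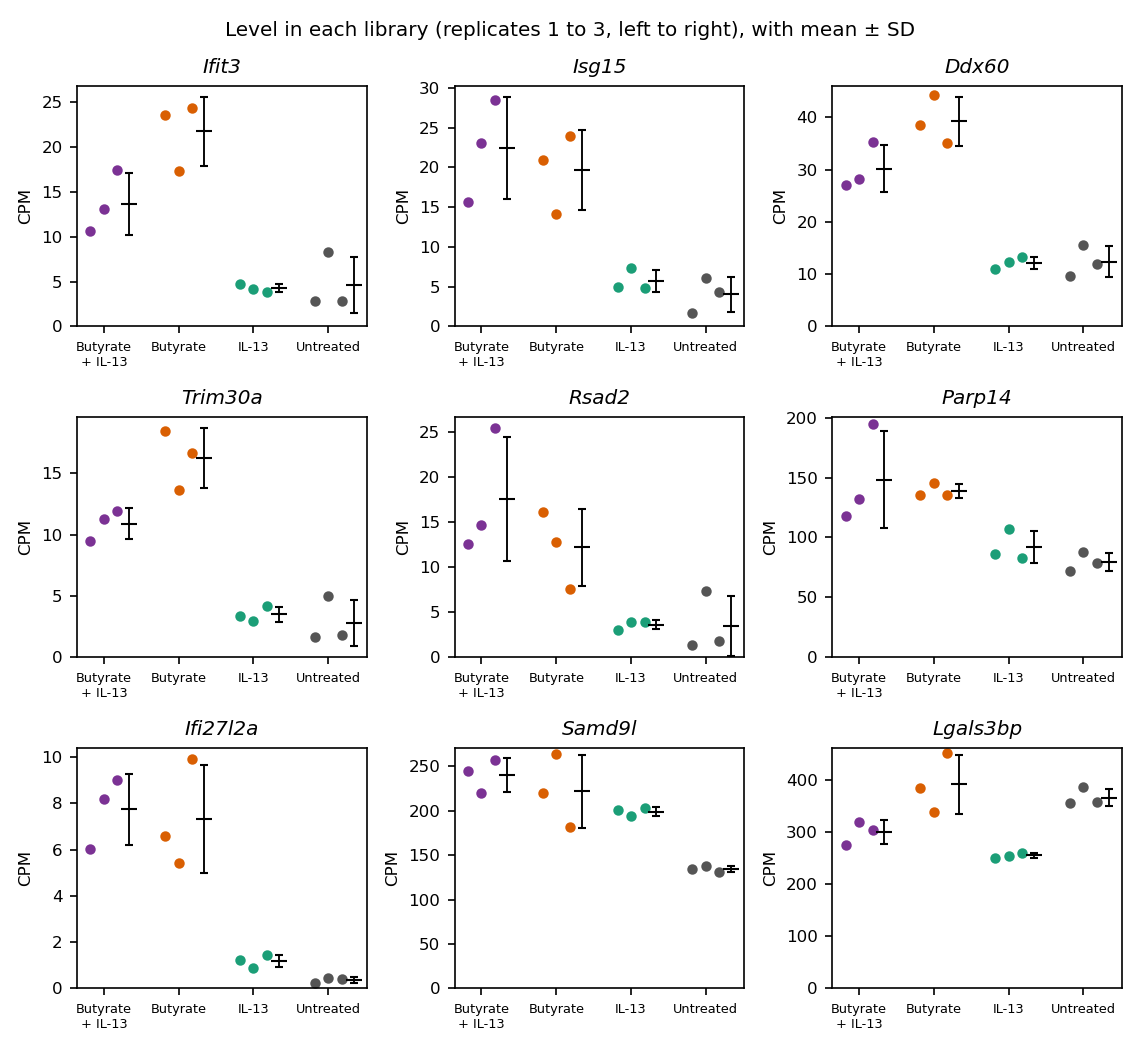
CPM of 9 of the genes in each library, with groups from left to right and replicates 1 to 3 within each; bars give the mean ± SD (n = 3), and each axis starts at 0. In the first 7 panels, Ifit3 to Ifi27l2a, the libraries given butyrate lie above those without it. Of these, Ifit3, Isg15, Ddx60, Trim30a, Parp14 and Ifi27l2a had the largest change of their role for butyrate over untreated. The panels thus do not stand for all 36 genes. Samd9l is lowest in untreated enteroids and Lgals3bp lowest in IL-13 enteroids.

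Of 7 direct antiviral effectors, 6 were called higher with butyrate over untreated and 4 with butyrate + IL-13 over IL-13. Trim30a, a member of the TRIM family of ligases, had 9.49, 11.3 and 11.9 CPM with butyrate + IL-13 and 18.5, 13.6 and 16.7 CPM with butyrate. Without butyrate, Trim30a had 3.39, 2.95 and 4.15 CPM with IL-13 and 1.64, 4.98 and 1.83 CPM in untreated enteroids. All libraries given butyrate alone lay above those given both agents, which in turn lay above the rest. The log2 fold change of Trim30a was 1.64 ± 0.30 (adjusted p = 0.00087) over IL-13 and 2.50 ± 0.28 (adjusted p = 2e-05) over untreated, and the change over untreated was 3.23 without untreated replicate 2. Rtp4, a chaperone of membrane receptors with antiviral activity, had 45.1, 47.4 and 58.8 CPM with butyrate + IL-13 and 46.9, 36.5 and 51.4 CPM with butyrate. Without butyrate, Rtp4 had 23.2, 17.6 and 18.5 CPM with IL-13 and 8.70, 18.3 and 10.5 CPM in untreated enteroids. The libraries without butyrate stayed below all those with it, and edgeR gave 1.35 ± 0.21 (adjusted p = 0.00018) over IL-13 and 1.83 ± 0.21 (adjusted p = 2e-05) over untreated.

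Rsad2 and Cmpk2 lie side by side on chromosome 12, from 26442753 to 26456452 and from 26469204 to 26479835 (mm10). Rsad2 encodes viperin, which makes a chain-ending nucleotide from CTP, and Cmpk2 encodes a mitochondrial nucleotide kinase that supplies such substrates. Rsad2 had 12.7, 14.7 and 25.5 CPM with butyrate + IL-13 and 16.2, 12.8 and 7.65 CPM with butyrate. Without butyrate, Rsad2 had 3.03, 3.91 and 3.88 CPM with IL-13 and 1.39, 7.37 and 1.77 CPM in untreated enteroids. Untreated replicate 2 was close to the lowest butyrate library, and butyrate + IL-13 replicate 3 was the highest. Rsad2 changed by 2.29 ± 0.45 (adjusted p = 0.0016) over IL-13 and 1.77 ± 0.43 (adjusted p = 0.014) over untreated, and Cmpk2 by 1.50 ± 0.30 (adjusted p = 0.0018) and 1.22 ± 0.27 (adjusted p = 0.0082) in the same order. The Rsad2 call over untreated was lost without any 1 of the 3 butyrate libraries (adjusted p = 0.082, 0.18 and 0.066 without replicates 1, 2 and 3) or untreated replicate 1 (0.071) or 3 (0.091), over a range of 0.0001 to 0.18 among all alternatives. The call was also lost with no filter (0.15), in a fit of only the groups compared (0.054) and without both libraries highest in Lars2 (0.075). The change of Rsad2 over untreated was 2.97 without untreated replicate 2. The Cmpk2 call over untreated was lost without butyrate replicate 2 (0.057) or untreated replicate 3 (0.054), in a range from 0.0005 to 0.057.

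Bst2, which encodes tetherin, a protein that ties budding virions to the cell, had 29.7, 36.2 and 30.9 CPM with butyrate + IL-13 and 32.9, 34.8 and 49.4 CPM with butyrate. Without butyrate, Bst2 had 25.0, 26.2 and 25.0 CPM with IL-13 and 27.6, 28.4 and 27.2 CPM in untreated enteroids. Butyrate replicate 3 was the highest and the other libraries lay between 25.0 and 36.2 CPM. Bst2 changed by 0.35 ± 0.14 (adjusted p = 0.079) over IL-13 and 0.49 ± 0.13 (adjusted p = 0.025) over untreated. The call over untreated was lost without butyrate replicate 3 (adjusted p = 0.092) or without untreated replicate 1 (0.073), 2 (0.077) or 3 (0.098), in a range from 0.0088 to 0.098. That call was also lost with library size alone (0.052) and in a fit of only the groups compared (0.063). Samd9l, an antiviral factor that curbs translation, had 245, 220.0 and 258 CPM with butyrate + IL-13 and 219.6, 264 and 182 CPM with butyrate. Without butyrate, Samd9l had 201, 194 and 203 CPM with IL-13 and 135, 137 and 131 CPM in untreated enteroids. The untreated libraries were below all others, and the butyrate libraries spread across the IL-13 ones. It changed by 0.27 ± 0.10 (adjusted p = 0.071) over IL-13 and 0.72 ± 0.10 (adjusted p = 0.00022) over untreated. Mx2, a dynamin-like GTPase, had 0.237, 1.59 and 1.17 CPM with butyrate + IL-13 and 0.782, 0.884 and 2.38 CPM with butyrate. Without butyrate, Mx2 had 0.216, 0.412 and 0.476 CPM with IL-13 and 0.210, 0.851 and 0.554 CPM in untreated enteroids, on 3 to 42 counts per library. The groups overlapped within both butyrate comparisons, and neither change was called, at 1.42 ± 0.72 (adjusted p = 0.18) over IL-13 and 1.28 ± 0.59 (adjusted p = 0.21) over untreated.

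Among the ADP-ribosyltransferases and their partner, Parp14 and Parp12 were called with butyrate over untreated, and Parp14 and Parp9 with butyrate + IL-13 over IL-13. Parp14 had 118, 132 and 194 CPM with butyrate + IL-13 and 136, 145 and 135 CPM with butyrate. Without butyrate, Parp14 had 86.6, 107 and 82.8 CPM with IL-13 and 72.2, 87.5 and 78.6 CPM in untreated enteroids. Libraries given butyrate lay above those without, with butyrate + IL-13 replicate 3 the highest. Its log2 fold change was 0.69 ± 0.14 (adjusted p = 0.0025) over IL-13 and 0.80 ± 0.14 (adjusted p = 0.0014) over untreated, and that of Parp12 was 0.27 ± 0.12 (adjusted p = 0.11) and 0.54 ± 0.11 (adjusted p = 0.0046) in the same order.

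Parp9 and Dtx3l encode a pair of proteins that bind each other, an ADP-ribosyltransferase and a ubiquitin ligase, and lie near Parp14 on chromosome 16. Parp9 had 103, 99.7 and 117 CPM with butyrate + IL-13 and 125, 116 and 119 CPM with butyrate. Without butyrate, Parp9 had 83.9, 87.5 and 89.6 CPM with IL-13 and 105, 103 and 103 CPM in untreated enteroids. Dtx3l had 109, 99.2 and 129.6 CPM with butyrate + IL-13 and 124, 135 and 129 CPM with butyrate. Without butyrate, Dtx3l had 94.1, 99.1 and 103 CPM with IL-13 and 117, 116 and 109.5 CPM in untreated enteroids. For both genes every butyrate library was above every untreated one by a small margin, and every IL-13 library was below the untreated ones. Parp9 changed by 0.30 ± 0.08 (adjusted p = 0.013) over IL-13 and 0.21 ± 0.08 (adjusted p = 0.11) over untreated, and Dtx3l by 0.19 ± 0.09 (adjusted p = 0.16) and 0.18 ± 0.09 (adjusted p = 0.27). The Parp9 call was lost without butyrate + IL-13 replicate 3 (adjusted p = 0.057) or IL-13 replicate 1 (0.056), in a range from 0.00074 to 0.12. It was also lost with library size alone (0.12) and without both libraries highest in Lars2 (0.062). The pair overlaps on opposite strands, and without knowing whether counting used strand their reads cannot be told apart there.

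The other 10 genes held both the strongest and the weakest responses. Ifi27l2a, which encodes a small hydrophobic membrane protein, had 6.01, 8.20 and 8.996 CPM with butyrate + IL-13 and 6.61, 5.41 and 9.91 CPM with butyrate. Without butyrate, Ifi27l2a had 1.23, 0.893 and 1.43 CPM with IL-13 and 0.210, 0.446 and 0.388 CPM in untreated enteroids. Untreated libraries were below 0.5 CPM, IL-13 libraries came next and all libraries given butyrate were highest. Its log2 fold change was 2.70 ± 0.30 (adjusted p = 7.9e-06) over IL-13 and 4.37 ± 0.33 (adjusted p = 2.3e-07) over untreated, on 5 to 175 counts per library. Ifi44 changed by 1.41 ± 0.29 (adjusted p = 0.0024) and 2.25 ± 0.29 (adjusted p = 6.2e-05), Sp100, a part of nuclear bodies, by 2.49 ± 0.48 (adjusted p = 0.0013) and 2.09 ± 0.51 (adjusted p = 0.015), and Xaf1, which promotes cell death, by 1.06 ± 0.30 (adjusted p = 0.019) and 1.08 ± 0.27 (adjusted p = 0.018). Without untreated replicate 2 the changes over untreated were 2.98 for Ifi44 and 2.85 for Sp100, the latter on 3 to 79 counts per library.

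Helz2, a helicase that binds nuclear receptors, changed by 0.59 ± 0.17 (adjusted p = 0.018) over IL-13, where its groups overlapped, and by 0.55 ± 0.17 (adjusted p = 0.049) over untreated. Its call over untreated was lost in 13 of 20 alternatives and that over IL-13 in 10 of 20. The Sp100 call over untreated was lost without butyrate replicate 1 (adjusted p = 0.083) or untreated replicate 1 (0.075) or 3 (0.067), in a range from 0.0024 to 0.083. The Xaf1 call over untreated was lost without the same libraries (0.10, 0.089 and 0.074, in a range from 0.0066 to 0.10), and its call over IL-13 without IL-13 replicate 1 (0.089) or 3 (0.084) or butyrate + IL-13 replicate 2 (0.053), in a range from 0.0065 to 0.089.

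In this group 5 genes were not called for butyrate in either comparison. Tor3a, of the torsin family of ATPases, had 35.3, 33.3 and 32.6 CPM with butyrate + IL-13 and 27.2, 23.3 and 24.9 CPM with butyrate. Without butyrate, Tor3a had 35.3, 35.6 and 34.4 CPM with IL-13 and 24.3, 26.7 and 25.4 CPM in untreated enteroids. Its level went with IL-13 and not with butyrate, which gave -0.06 ± 0.10 (adjusted p = 0.72) over IL-13 and -0.02 ± 0.09 (adjusted p = 0.95) over untreated. Epsti1 had 33.8, 31.5 and 27.7 CPM with butyrate + IL-13 and 28.5, 32.7 and 32.2 CPM with butyrate. Without butyrate, Epsti1 had 24.7, 25.1 and 29.7 CPM with IL-13 and 29.6, 30.8 and 28.4 CPM in untreated enteroids, with overlapping groups throughout. Lgals3bp, a secreted glycoprotein, had 276, 320.2 and 306 CPM with butyrate + IL-13 and 385, 340.2 and 452 CPM with butyrate. Without butyrate, Lgals3bp had 251, 255 and 261 CPM with IL-13 and 357, 387 and 358 CPM in untreated enteroids, lowest with IL-13.

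Nmi and Ifi35 encode proteins that bind each other. Nmi had 15.5, 11.9 and 16.2 CPM with butyrate + IL-13 and 12.6, 15.5 and 13.0 CPM with butyrate. Without butyrate, Nmi had 15.4, 14.2 and 13.0 CPM with IL-13 and 10.5, 10.9 and 8.87 CPM in untreated enteroids, with the untreated libraries lowest. Ifi35 had 68.1, 81.6 and 93.5 CPM with butyrate + IL-13 and 76.9, 71.7 and 93.2 CPM with butyrate. Without butyrate, Ifi35 had 70.5, 72.5 and 67.6 CPM with IL-13 and 57.1, 65.4 and 68.2 CPM in untreated enteroids, and its groups overlapped except that every butyrate library was above every untreated one. Butyrate over untreated gave 0.44 ± 0.15 (adjusted p = 0.079) for Nmi, 0.34 ± 0.12 (adjusted p = 0.081) for Ifi35, 0.10 ± 0.09 (adjusted p = 0.62) for Lgals3bp and 0.07 ± 0.11 (adjusted p = 0.77) for Epsti1, and butyrate + IL-13 over IL-13 gave 0.03 ± 0.15 (adjusted p = 0.9), 0.21 ± 0.12 (adjusted p = 0.22), 0.23 ± 0.09 (adjusted p = 0.089) and 0.22 ± 0.11 (adjusted p = 0.17).

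Genes with lower levels without butyrate tended to have larger log2 fold changes with it. Per kilobase of exon, levels in untreated enteroids ranged from 0.0488 CPM for Sp100 to 129 CPM for Lgals3bp. Over the 36 genes, the log2 level per kilobase in untreated libraries had a Spearman rho of -0.74 with the log2 fold change of butyrate + IL-13 over IL-13, and the level in IL-13 libraries had a rho of -0.68 with that of butyrate over untreated; in each case the level came from libraries outside the comparison. Of 14 genes with a mean under 10 CPM in IL-13 enteroids, 13 were called with butyrate over untreated and their median log2 fold change was 1.85. Of 11 genes between 10 and 50 CPM, 7 were called, with a median of 0.54, and of 11 at 50 CPM or more, 6 were called, with a median of 0.40. Classed by the level in untreated enteroids, again with 14, 11 and 11 genes, butyrate + IL-13 over IL-13 had 12, 6 and 6 genes called and medians of 1.66, 0.45 and 0.27. These are descriptions across genes, which share libraries and are not independent. Pooled over all levels, 5.14% of all tested genes were called higher with butyrate over untreated and 9.85% with butyrate + IL-13 over IL-13. The level classes and correlations were not computed over all tested genes, so they do not show a trait particular to these 36.

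**Figure D4:**
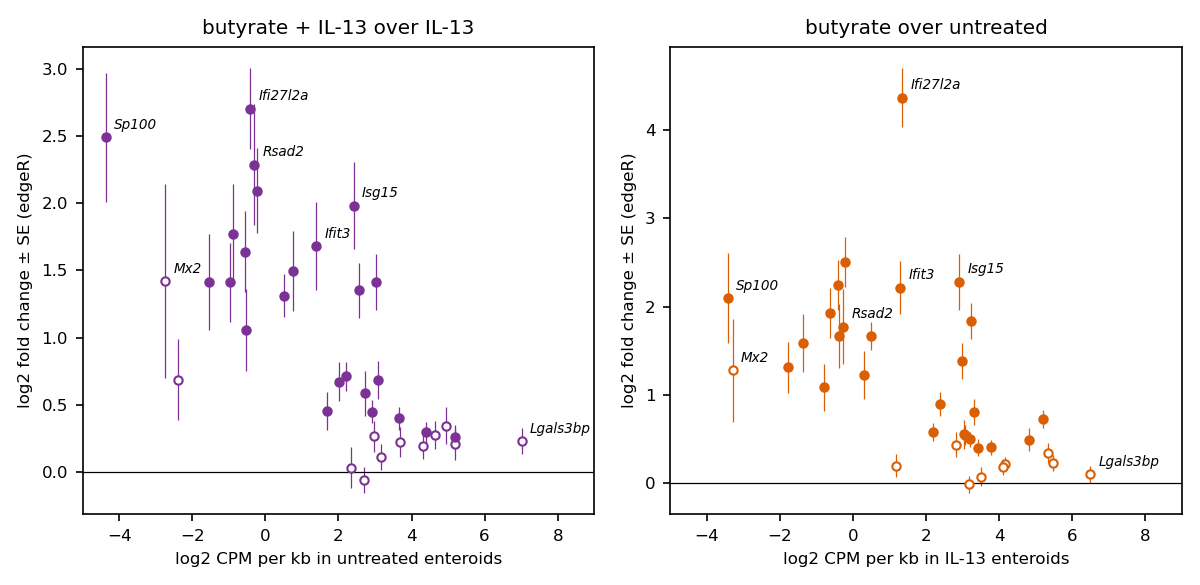
Log2 fold change ± SE (edgeR) of the 36 genes against their log2 CPM per kilobase in libraries outside the comparison: untreated libraries for butyrate + IL-13 over IL-13 (left) and IL-13 libraries for butyrate over untreated (right). Filled points have an adjusted p under 0.05; the larger changes lie at low levels, with Spearman rho -0.74 on the left and -0.68 on the right.

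IL-13 alone moved some of the genes, in both directions. For IL-13 over untreated enteroids edgeR called 9 higher, or 25% of the 36, and 3 lower, or 8.33%, where 21.8% of all genes were called higher and 21.7% lower, and the median was 0.14. The share called higher was near that of all genes and the share called lower was under it. The genes called higher were Ifi27l2a at 1.75 ± 0.42 (adjusted p = 0.0027), Rtp4 at 0.65 ± 0.21 (adjusted p = 0.02), Samd9l at 0.57 ± 0.10 (adjusted p = 0.00027), Nmi at 0.49 ± 0.15 (adjusted p = 0.013) and Tor3a at 0.46 ± 0.10 (adjusted p = 0.00072). The sensors Dhx58, Ifih1 and Adar and the ligase Trim25 were called with smaller changes of 0.37 ± 0.14 (adjusted p = 0.048), 0.29 ± 0.09 (adjusted p = 0.011), 0.26 ± 0.10 (adjusted p = 0.038) and 0.27 ± 0.09 (adjusted p = 0.019). Lgals3bp was lower at -0.52 ± 0.09 (adjusted p = 0.00021), Uba7 at -0.50 ± 0.14 (adjusted p = 0.0069) and Parp9 at -0.25 ± 0.08 (adjusted p = 0.016), and Dtx3l gave -0.22 ± 0.09 (adjusted p = 0.064). None of the 3 IFIT genes was called, with Ifit1 at -0.06 ± 0.21 (adjusted p = 0.83), Ifit2 at -0.41 ± 0.33 (adjusted p = 0.34) and Ifit3 at -0.13 ± 0.34 (adjusted p = 0.78), nor were Isg15, at 0.49 ± 0.35 (adjusted p = 0.28), and Rsad2, at 0.00 ± 0.49 (adjusted p = 0.99).

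Of these 12 genes, Ifi27l2a, Samd9l, Tor3a and Lgals3bp were called under each of the 20 alternatives, and the other 8 lost the call in at least 1. Leaving out 1 library, the count of 12 became 6 for untreated replicate 3, 7 for untreated replicate 1, 14 for untreated replicate 2, 7 for IL-13 replicate 1 and 8 for IL-13 replicate 3. Scaling by library size alone gave 3 higher and 5 lower. It moved the median of all genes by -0.167 relative to TMM in this comparison. The shift was -0.064 for butyrate over untreated, -0.126 for butyrate + IL-13 over IL-13, -0.229 for butyrate + IL-13 over butyrate and -0.293 for butyrate + IL-13 over untreated. In the authors' deposited table of IL-13 and untreated libraries, 14 of the 36 genes had an FDR under 0.05, 10 with a positive and 4 with a negative fold change, and 12 of these were called here, the others being Dtx3l and Helz2.

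In the presence of butyrate, the share of the 36 genes called with IL-13 was below that of all genes. For butyrate + IL-13 over butyrate edgeR called 4 higher and 2 lower, where 22.9% of all genes were called higher and 24.9% lower, with a median of -0.02. The 4 were Sp100 at 1.29 ± 0.41 (adjusted p = 0.016), Tor3a at 0.42 ± 0.10 (adjusted p = 0.0015), Trim25 at 0.31 ± 0.09 (adjusted p = 0.0079) and Ifih1 at 0.24 ± 0.08 (adjusted p = 0.026). The 2 lower were Lgals3bp at -0.39 ± 0.09 (adjusted p = 0.0025) and Ddx60 at -0.38 ± 0.15 (adjusted p = 0.045), whose groups overlapped. Library size alone gave 1 higher and 10 lower, leaving out butyrate + IL-13 replicate 3 gave 2 higher and 7 lower, and leaving out both libraries highest in Lars2 gave 1 higher and 7 lower. Of these 6 calls, 1, Lgals3bp, held under each of the 20 alternatives. The Ddx60 call was lost in 11 of them, DESeq2 and RLE scaling included (adjusted p = 0.076 and 0.062, in a range from 0.0023 to 0.18), and the Ifih1 call in 6 (0.0064 to 0.93). The Sp100 call was lost without butyrate + IL-13 replicate 3 (adjusted p = 0.12) and without both libraries highest in Lars2 (0.21, in a range from 0.0088 to 0.21). The Trim25 call was lost with library size alone and without both of those libraries (0.001 to 0.45), and the Tor3a call with library size alone (3.8e-05 to 0.11).

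**Figure D5:**
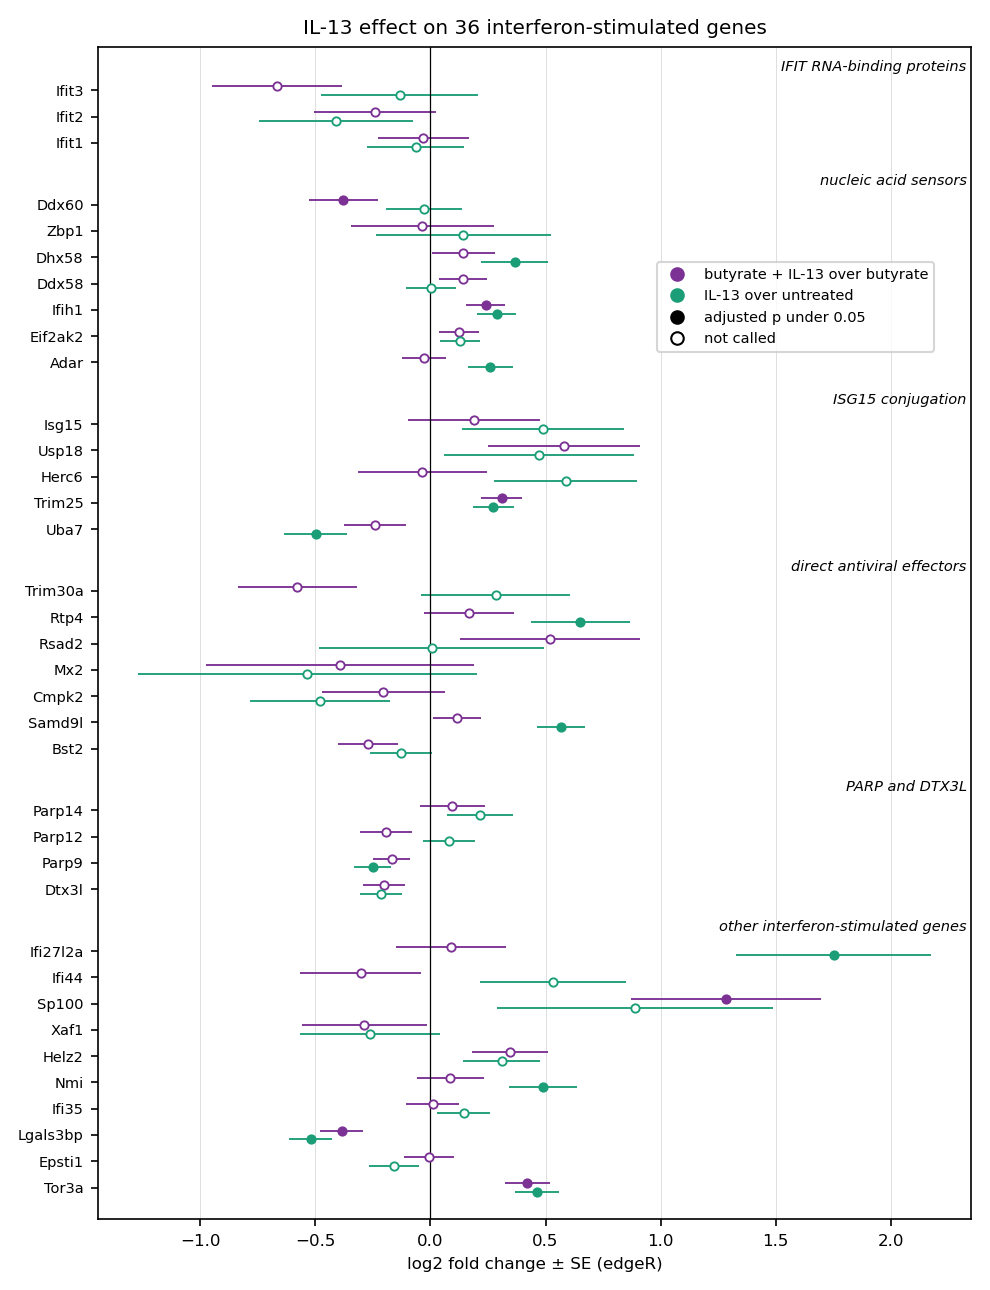
Log2 fold change ± SE (edgeR) of each of the 36 genes for butyrate + IL-13 over butyrate and for IL-13 over untreated, grouped by role; filled points have an adjusted p under 0.05. Most points lie close to 0, Ifi27l2a stands at 1.75 for IL-13 over untreated, and Lgals3bp is below 0 in both.

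With both agents over untreated enteroids, edgeR called 29 of the 36 genes higher and 1, Lgals3bp at -0.29 ± 0.09 (adjusted p = 0.013), lower. Of the higher calls 22 held under each of the 20 alternatives and 7 did not (Adar, Cmpk2, Ifi35, Nmi, Parp12, Tor3a and Xaf1). The Lgals3bp call was lost without butyrate + IL-13 replicate 1 (adjusted p = 0.11) or untreated replicate 2 (0.062), in a range from 2.5e-05 to 0.11. Of all genes 28.2% were called higher and 31.5% lower. Library size alone gave 23 higher and 4 lower of the 36. The median was 0.89. The changes were largest for Ifi27l2a at 4.46 ± 0.34 (adjusted p = 3.2e-09), Sp100 at 3.38 ± 0.49 (adjusted p = 1.2e-05), Isg15 at 2.47 ± 0.32 (adjusted p = 3.2e-06), Rsad2 at 2.29 ± 0.43 (adjusted p = 0.00018) and Usp18 at 2.25 ± 0.37 (adjusted p = 4.4e-05). Sp100 had 3 to 79 counts per library, with 0.37 ± 0.26 CPM in untreated enteroids (SD, n = 3). Without untreated replicate 2, the change of Sp100 was 4.13, that of Rsad2 3.49 and that of Usp18 2.85.

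Whether the butyrate response differed with IL-13 was tested by the interaction term, the change of butyrate + IL-13 over IL-13 minus that of butyrate over untreated. EdgeR called 0 of the 36 genes, as did DESeq2, with 2 genes at an unadjusted p under 0.05, where 0.865% of all genes were called. Those 2 were Ifi27l2a, at -1.66 ± 0.49 (adjusted p = 0.15), and Samd9l, at -0.45 ± 0.15 (adjusted p = 0.21). Ifi27l2a already stood higher with IL-13 than in untreated enteroids and reached about the same level with butyrate in both settings, 7.74 ± 1.55 CPM with both agents and 7.31 ± 2.33 CPM with butyrate (SD, n = 3 each). Trim30a followed at -0.86 ± 0.42 (adjusted p = 0.47) and Ifi44 at -0.83 ± 0.41 (adjusted p = 0.49), and both were called without untreated replicate 2 (adjusted p = 0.026 for each, in ranges from 0.026 to 0.74 for Trim30a and 0.026 to 0.76 for Ifi44). Samd9l was called without butyrate replicate 3 (0.015, in a range from 0.015 to 0.38). For the genes called for butyrate in 1 setting only, the interaction was -0.29 ± 0.14 (adjusted p = 0.46) for Adar, -0.14 ± 0.19 (adjusted p = 0.89) for Bst2, -0.62 ± 0.42 (adjusted p = 0.69) for Herc6, -0.27 ± 0.16 (adjusted p = 0.6) for Parp12, 0.08 ± 0.11 (adjusted p = 0.89) for Parp9, 0.26 ± 0.19 (adjusted p = 0.74) for Uba7 and 0.04 ± 0.13 (adjusted p = 0.97) for Trim25.

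Other genes of the pathway were read from 8 lists of 50 genes, of which 46 had rows and 39 were tested. The lists were chosen with earlier results of these data known, so the counts below are descriptions and not independent support. With butyrate over untreated, 15 of the 39 were called higher and 1, Irf8, lower, where 5.14% and 2.76% of all genes were. With butyrate + IL-13 over IL-13, 23 were called higher and 0 lower, where 9.85% and 11.3% of all genes were. Without the lists of OAS genes and GTPases, which are themselves interferon-stimulated effectors, 28 genes of nucleic acid sensing and of interferon reception, signalling and its inhibition remained. Of these, 6 were called higher with butyrate over untreated and 14 with butyrate + IL-13 over IL-13. Of the interferon genes listed, Ifnk and Ifne had at most 3 counts and Ifng at most 1 count in any library, too few to test. No row was found for the other 4 interferon genes of the list. The deposited counts leave out any gene with counts in butyrate libraries alone, so the response of these 4 to butyrate cannot be read. Stat2 and Irf9, which encode parts of ISGF3, were called in both butyrate comparisons. Stat2 changed by 1.04 ± 0.15 (adjusted p = 9.4e-05) over IL-13 and 0.79 ± 0.15 (adjusted p = 0.0019) over untreated, and Irf9 by 0.74 ± 0.12 (adjusted p = 0.00027) and 0.82 ± 0.12 (adjusted p = 0.0002). Irf7, the transcription factor that amplifies interferon production, changed by 0.92 ± 0.16 (adjusted p = 0.00053) and 1.42 ± 0.16 (adjusted p = 2e-05) in the same order. Irf3, which acts first on viral sensing, gave -0.06 ± 0.09 (adjusted p = 0.71) and -0.05 ± 0.09 (adjusted p = 0.83), and Irf1 gave 0.19 ± 0.10 (adjusted p = 0.2) and 0.03 ± 0.10 (adjusted p = 0.9).

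Of the interferon receptors, 1 of 6, Ifngr1, was called higher with butyrate over untreated, with a list median of 0.18, and all 6 with butyrate + IL-13 over IL-13, with a median of 0.35. Of all tested genes, 5.14% and 9.85% were called higher in these comparisons, in the same order. Ifnlr1, the type III receptor chain, gave 0.33 ± 0.10 (adjusted p = 0.031) over IL-13 and 0.07 ± 0.10 (adjusted p = 0.77) over untreated, and the interaction term called none of the 6. A list of 8 sensing genes held the sensors Tlr3 and Mb21d1 and adaptors and kinases that carry signals from sensors, among them Mavs, Tbk1 and Ticam1. Of these 8, 0 were called with butyrate over untreated, with a median of 0.04, and 1, Ticam1 at 0.41 ± 0.09 (adjusted p = 0.0042), with butyrate + IL-13 over IL-13. With only 8 genes, counts of 0 and 1 cannot be told from the shares of all tested genes. The 6 genes of the OAS family, whose products bind double-stranded RNA or are relatives of those that do, were called higher in both comparisons, for example Oasl1 at 0.75 ± 0.14 (adjusted p = 0.00077) over IL-13 and 1.05 ± 0.14 (adjusted p = 9.9e-05) over untreated and Oas3 at 2.11 ± 0.26 (adjusted p = 2.7e-05) and 2.34 ± 0.25 (adjusted p = 1.7e-05). Of 4 tested guanylate-binding and immunity-related GTPases, Gbp3, Igtp and Irgm1 were called higher in both and Gbp7 was not.

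Some inhibitors and sensing genes of the pathway were called with IL-13 over untreated and not with butyrate over untreated. Socs1, which blocks JAK kinases, gave 3.10 ± 0.19 (adjusted p = 5.4e-10) for IL-13 over untreated and -0.46 ± 0.23 (adjusted p = 0.27) for butyrate over untreated, and Socs3 gave 0.46 ± 0.13 (adjusted p = 0.0063) and -0.11 ± 0.13 (adjusted p = 0.67). Tmem173, which encodes the DNA-sensing adaptor STING, was lower with IL-13 over untreated at -2.04 ± 0.28 (adjusted p = 1.1e-05) and gave -0.55 ± 0.24 (adjusted p = 0.18) with butyrate. The 8 sensing genes went both ways with IL-13 over untreated, with 3 called higher and 2 lower. The 3 were Mavs at 0.44 ± 0.08 (adjusted p = 0.00015), Tlr3 at 0.41 ± 0.12 (adjusted p = 0.0096) and Ticam1 at 0.38 ± 0.09 (adjusted p = 0.0027). Mb21d1 was lower, at -0.58 ± 0.15 (adjusted p = 0.0041), as was Tmem173. The difference between the changes with IL-13 and with butyrate was not tested. For IL-13 over untreated, 13 of the 39 pathway genes were called higher and 5 lower, where 21.8% and 21.7% of all genes were. For butyrate + IL-13 over butyrate the counts were 15 higher and 6 lower, where 22.9% and 24.9% of all genes were.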

How the data were processed

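The authors' deposited table gave whole-number counts per gene in each of the 12 libraries, not normalised, with genome build mm10 per the submitters' processing notes. It also held the authors' p-value and FDR and their log2 fold change of a DESeq comparison of untreated and IL-13 libraries. Per the file headers it kept only genes whose corrected p there was below 1, which leaves out any gene with counts in butyrate libraries alone. Aligner, counter and strand setting: not given in the sources used here. Columns named US were read as the untreated samples, the one group with no column of its own name. Multiple rows of 23 genes were summed (18092 rows to 18068 genes), and 4318 genes were filtered out.

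Tests used edgeR 4.0.16 under R 4.3.3 (glmQLFit, robust, TMM, filterByExpr, Benjamini-Hochberg over 13750 genes), fitting all 12 libraries at once with a coefficient per group and calling genes at an adjusted p under 0.05. SE is the log2 fold change over the square root of F. The mean log2 CPM used a prior count of 2. No replicate pair agreed within sampling noise (chi-square over its degrees of freedom, 3.82 to 35.8). The alternatives were library size alone, RLE scaling, DESeq2 1.42.0, a mean of at least 50 counts or no filter at all, a fit restricted to the groups compared, a block for replicate number, omission of each library, and omission of both libraries highest in Lars2. Code was tested on simulated data. All 36 genes may be named. Values in every library are given for the largest and smallest change of each role for butyrate over untreated. They are also given for genes not called there, and for genes called with IL-13 or in the interaction. Eif2ak2 and Rsad2 met none of these rules and are shown as well. Other genes come from pathway and marker lists. Genes, roles and lists were chosen with earlier results of these data known. Promoters are from RefSeq (GRCm38.p6) and exon lengths from GENCODE M21. Tables and plots were made in Python 3.11.15.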

Additional observations from a re-analysis of the deposited data

How the results depend on the processing

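Of the values for single genes that were called in the reported fit or under the alternative, 1 changed direction: Parp9 for butyrate + IL-13 over untreated, 0.05 in the reported fit, was -0.25 with library size alone. Of 4264 values under alternatives, another 156, called in neither, changed sign, 24 of them with library size alone. Library size alone gave 11 called genes for butyrate + IL-13 over butyrate, where the reported fit gave 6, and mean log2 CPM of 4.92 with butyrate and 3.88 with IL-13, where TMM gave 4.85 and 3.92. Over all genes it gave 505 higher and 569 lower for butyrate over untreated (707 and 379 in the reported fit), 659 and 2689 for butyrate + IL-13 over IL-13 (1355 and 1557), 1822 and 4651 for IL-13 over untreated (2997 and 2980), 1691 and 5793 for butyrate + IL-13 over butyrate (3144 and 3420), and 2155 and 6846 for butyrate + IL-13 over untreated (3877 and 4328). DESeq2 called 245 of all genes in the interaction, where edgeR called 119. With 50 bases after the start added to the promoter window, 10 genes held the ISRE core, 5 the gamma-activated sequence and 2 the STAT6 element. The cause of these shifts was not tested.

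Leaving out 1 library at a time gave 18 to 27 called genes of the 36 for butyrate over untreated, 19 to 27 for butyrate + IL-13 over IL-13, 6 to 14 for IL-13 over untreated, 5 to 9 for butyrate + IL-13 over butyrate, 27 to 30 for butyrate + IL-13 over untreated and 0 to 2 for the interaction. Over all genes the ranges were 559 to 1395, 1935 to 3451, 4923 to 6473, 5586 to 6632, 7376 to 8558 and 55 to 213 in that order. The labels do not say whether replicate numbers pair libraries, and the deviations of same-numbered libraries had correlations of -0.31 to 0.22, with 4 of 18 over 0.1, so no pairing was used; with a replicate block 26, 23, 11, 6, 30 and 0 genes were called in that order. A fit of only the groups compared was not run for the interaction, which uses all 4. Counting precision was lowest for Mx2 and Sp100, each with a library of 3 counts.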
